A study of Mus musculus with 18 samples.

Results

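The genes described here are 10 members of the HoxC and HoxD clusters, namely Hoxc4, Hoxc5, Hoxc6, Hoxc8, Hoxc9, Hoxd3, Hoxd4, Hoxd8, Hoxd9 and Hoxd10, out of 18193 genes with a probe set of their own on the arrays. A gene was taken up where a probe set carried its symbol and no other in the platform annotation, which gave 14 probe sets for 9 of the 10 genes. Hoxd4 had no probe set of its own, and the 2 probe sets that carry both the Hoxd4 and the Hoxd3 symbol are described separately. The study followed HBG3 mouse embryonic stem (ES) cells, a single line with a GFP reporter of motor neurons, as they differentiated into spinal motor neurons, with RNA measured on 18 Affymetrix mouse arrays at 6 stages. Day 0 stands for undifferentiated ES cells (3 arrays) and day 2 for embryoid bodies (4 arrays). A further 2 arrays hold day 2 embryoid bodies that had seen retinoic acid (RA) for 8 h. Day 3 is labelled as the neural precursor stage, day 4 as that of progenitor motor neurons and day 7 as that of postmitotic motor neurons, with 3 arrays for each. Cells were amplified on feeder cells and kept on gelatin for experiments, and day 0 is the day on which they were trypsinized to form aggregates. RA and a hedgehog (Hh) agonist were added at day 2, so that the arrays of days 3, 4 and 7 come from cells that received both, while the label of the 8 h arrays names RA alone. No array measured 8 h without RA or a later stage without RA, so the effect of RA and that of time in culture cannot be told apart.

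Hox genes encode homeodomain transcription factors and lie in clusters in which the order along the chromosome follows the order of expression along the body. Genes at the 3′ end of a cluster (low numbers) are switched on earlier and reach further towards the head, and genes at the 5′ end (high numbers) are switched on later and mark the trunk and tail. In the spinal cord, Hoxc4 and Hoxc5 are known for the cervical part, Hoxc6 and Hoxc8 for the levels of the forelimb, Hoxc9 for the thoracic part and Hoxd9 and Hoxd10 for the lumbar part, where they help to decide which motor columns and pools form. Hoxd3 and Hoxd4 reach the hindbrain, and RA, made by the somites, is a known inducer of the genes at the 3′ end.

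The promoter windows of 4 members are shown, 3 whose signal rose during differentiation (Hoxc4, Hoxd3 and Hoxd8) and 1 whose signal stayed under the background level (Hoxd10), since RA acts through receptors that bind DNA at pairs of AGGTCA elements. Each is the 250 bases before the RefSeq start of the gene on the GRCm38.p6 build, printed in the direction of transcription. Capitals mark AGGTCA on either strand.
Hoxc4, chr15:103034145-103034394, + strand: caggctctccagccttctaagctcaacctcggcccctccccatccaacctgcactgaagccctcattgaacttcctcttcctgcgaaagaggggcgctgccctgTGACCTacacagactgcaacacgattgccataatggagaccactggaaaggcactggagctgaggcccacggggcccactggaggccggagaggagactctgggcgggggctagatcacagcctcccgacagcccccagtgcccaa
Hoxd3, chr2:74711743-74711992, + strand: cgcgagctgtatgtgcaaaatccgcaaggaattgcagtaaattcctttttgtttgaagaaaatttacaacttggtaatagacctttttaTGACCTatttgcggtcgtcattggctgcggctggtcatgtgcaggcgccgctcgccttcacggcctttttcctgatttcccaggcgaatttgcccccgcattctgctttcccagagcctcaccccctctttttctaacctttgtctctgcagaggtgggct
Hoxd8, chr2:74704365-74704614, + strand: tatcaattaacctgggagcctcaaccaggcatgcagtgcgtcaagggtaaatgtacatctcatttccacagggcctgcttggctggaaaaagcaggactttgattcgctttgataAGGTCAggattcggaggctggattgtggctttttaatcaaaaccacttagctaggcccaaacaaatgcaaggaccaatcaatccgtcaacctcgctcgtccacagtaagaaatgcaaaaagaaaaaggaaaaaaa
Hoxd10, chr2:74691641-74691890, + strand: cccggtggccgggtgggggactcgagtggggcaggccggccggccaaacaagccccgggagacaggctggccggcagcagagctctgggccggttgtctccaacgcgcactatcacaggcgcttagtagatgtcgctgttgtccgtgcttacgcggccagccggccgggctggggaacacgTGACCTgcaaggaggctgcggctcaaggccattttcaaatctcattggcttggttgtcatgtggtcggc
RefSeq windows were at hand for 6 of the 10 members, the other two being those of Hoxd4 and Hoxd9. AGGTCA, read on both strands, occurred in 5 of these 6 windows, and in 14% of all 32851 windows of the same length. It began 146 bases before the start of Hoxc4, 161 before that of Hoxd3, 135 before that of Hoxd8, 69 before that of Hoxd10 and 145 before that of Hoxd4, and the Hoxd9 window held no match. Thus the windows of the 3 rising genes shown and that of Hoxd10 all held it. The related element GGTTCA occurred in 1 of the 6 windows (Hoxd4) against 8.85% of all windows. Exact direct repeats of this element, AGGTCANNAGGTCA (DR2) and AGGTCANNNNNAGGTCA (DR5), occurred in 0 of the 6 windows, and each in 0.00913% of all windows. At so low a rate 6 windows would hardly hold one. Repeats with variant elements, which RA receptors also bind, were not searched, so a lack of binding sites is not shown. TTTATG, the core to which the Cdx factors bind, occurred in 2 of the 6 windows (Hoxd3 and Hoxd4) against 10.8% of all windows. In the Hoxd3 window it overlaps the AGGTCA match on the opposite strand.

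Values are log2 signals as deposited, in which a step of 1 is a 2-fold change, and 4 on this scale served as the background level. Between 55.2% and 56.9% of the probe sets of each array lay under that level, and the lowest value on the arrays was 2.24. Where a gene has several probe sets, its value is that of the one with the highest mean. Signals of different probe sets are not compared with each other, since each hybridizes with its own strength. In RNA from a whole culture, fewer cells with a transcript and less of it per cell cannot be told apart. Markers of the stages went with the labels. The 6 ES cell markers were above background on all day 0 and day 2 arrays, and 4 of the 7 motor neuron markers (Mnx1, Isl1, Lhx3 and Slc18a3) were on all day 7 arrays, while Chat, the enzyme that makes acetylcholine, was at 2.24 to 2.88 there.

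Along the HoxC cluster the signal rose in Hoxc4 and Hoxc5 and along the HoxD cluster in Hoxd3 and, less, in Hoxd8, while Hoxc9 stayed at the lowest values, Hoxd10 stayed under background on all arrays and Hoxc6 on 16 of 18. Of the 9 genes, 3 had every array at or above background at day 0 (Hoxc4, Hoxc8 and Hoxd8), 0 did at day 2, 2 did after 8 h of RA (Hoxc4 and Hoxc5) and 5 did at day 3, day 4 and day 7 (Hoxc4, Hoxc5, Hoxc8, Hoxd3 and Hoxd8). A level of 3.5 in place of 4 made the count 5 at day 0, and a level of 5 made it 3 at day 7.

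**Figure D1:**
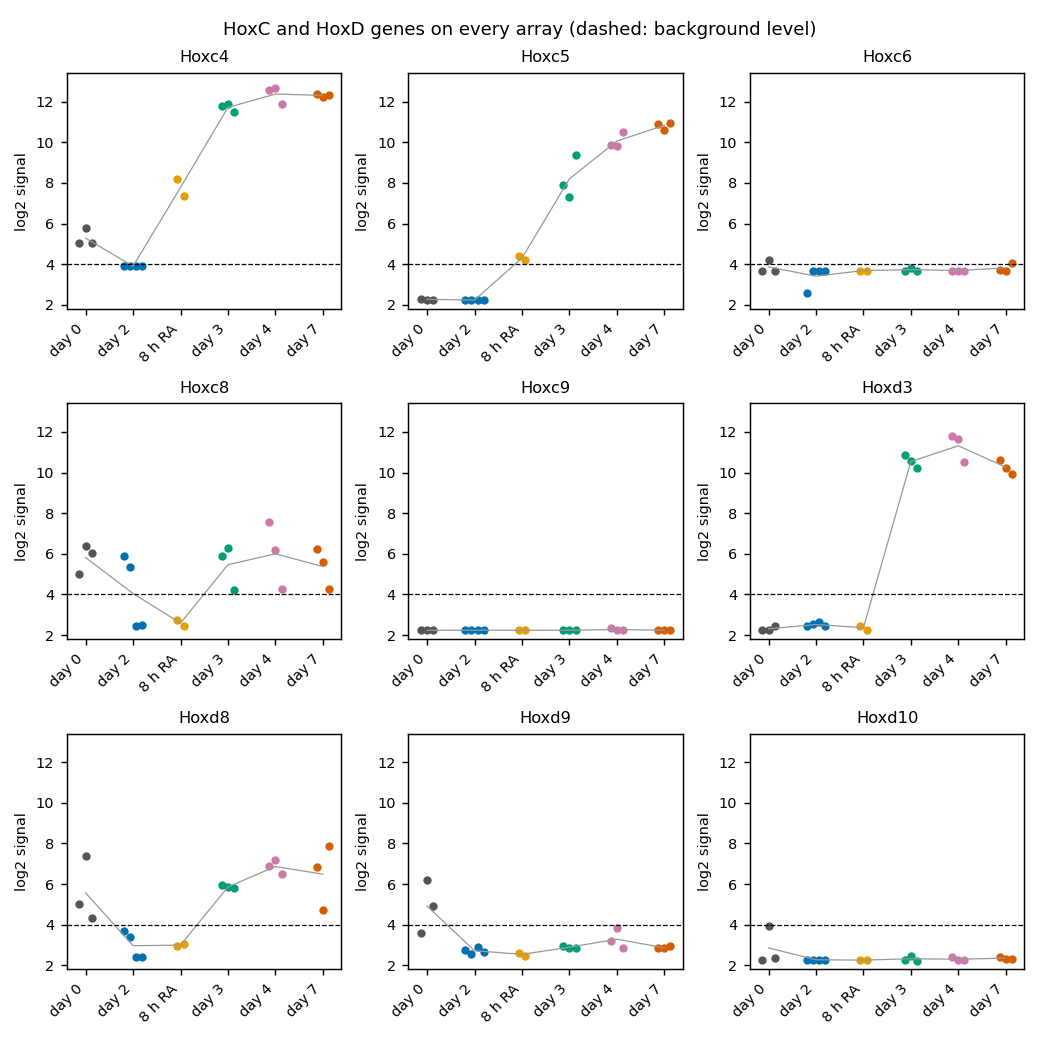
Log2 signal (vertical axis) of the 9 genes with a probe set of their own on each of the 18 arrays, by stage (horizontal axis), where each point is 1 array, the grey line joins the stage means and the dashed line is the background level of 4. Hoxc4, Hoxc5 and Hoxd3 climb above 9.9 by day 7 on every array, Hoxc8 scatters within stages, and Hoxc6, Hoxc9 and Hoxd10 stay near or under the line.

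Hoxc4, the member at the 3′ end of HoxC, passed the test after 8 h of RA, while Hoxc5 was higher there but missed it. Whether a stage separates their onset depends on the level chosen. At 8 h both lay above a level of 4, Hoxc5 only just, and Hoxc4 alone lay above a level of 5. At day 0 the Hoxc4 signal was 5.03, 5.76 and 5.05 on the 3 arrays, and at day 2 it was 3.91, 3.92, 3.90 and 3.89 on the 4 arrays. After 8 h of RA it was 8.18 and 7.38. It then reached 11.79, 11.89 and 11.48 at day 3, 12.57, 12.68 and 11.87 at day 4, and 12.36, 12.25 and 12.32 at day 7. Each 8 h array lay above every day 0 and day 2 array and under every day 3 array, and the arrays of days 4 and 7 overlapped.

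Hoxc5, its neighbour, had a smaller step at 8 h. Its signal was 2.31, 2.26 and 2.25 at day 0, and 2.24 to 2.25 on the 4 day 2 arrays. It was 4.40 and 4.21 after 8 h of RA, 7.90, 7.31 and 9.40 at day 3, 9.89, 9.81 and 10.49 at day 4, and 10.92, 10.62 and 10.97 at day 7. No array of a stage overlapped the stage before it from day 2 on.

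Hoxd3, which lies near the 3′ end of HoxD, had no signal at 8 h. Its signal was 2.24, 2.24 and 2.46 at day 0, 2.46, 2.54, 2.63 and 2.46 at day 2, and 2.46 and 2.27 after 8 h of RA. It then stood at 10.85, 10.57 and 10.20 at day 3, 11.79, 11.63 and 10.53 at day 4, and 10.63, 10.24 and 9.92 at day 7. The 8 h arrays lay within or under the day 2 arrays, and the day 3 arrays were far above both.

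Hoxd8, in the middle of HoxD, was above background on the arrays of day 0 and again from day 3 on, with neither the step to day 2 nor that to day 3 past the test. Its signal was 5.01, 7.36 and 4.34 at day 0, and 3.68, 3.37, 2.39 and 2.41 at day 2. It was 2.93 and 3.06 after 8 h of RA, 5.94, 5.84 and 5.79 at day 3, 6.91, 7.16 and 6.52 at day 4, and 6.85, 4.73 and 7.87 at day 7. The day 7 arrays span more than those of the 2 stages before. These values come from a probe set of the s type, which may take up related transcripts, and the other Hoxd8 probe set, under background at day 0 too, reached that level on 1 array alone (day 7 replicate 5, 4.45).

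The first comparison, day 2 against day 0, sets embryoid bodies before RA against ES cells, which also differ in time in culture and in the fibroblast signal given below. Hoxc4 fell by 1.38 (SE 0.23) on the log2 scale, at least 2.43-fold, with an adjusted p of 0.00323 in limma. Hoxd9, a lumbar gene, fell by 2.20 (SE 0.43), at least 1.88-fold, with an adjusted p of 0.00871 in limma. Hoxd9 was 3.61, 6.21 and 4.92 at day 0 and 2.74, 2.56, 2.91 and 2.66 at day 2, and at later stages it stayed under background. Hoxd8 was lower at day 2 by 2.60 (SE 0.74), which missed the threshold at an adjusted p of 0.0645 in limma. Thus 0 of the 9 genes rose and 2 fell, where 2.02% of all genes rose and 2.46% fell. Without day 0 replicate 2 neither gene passed the test, at adjusted p of 0.015 for Hoxc4 and 0.0144 for Hoxd9 in limma, and without day 2 replicate 3 neither did. Leaving out any 1 of the other day 2 arrays, or day 0 replicate 3, ended the call of Hoxd9.

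Several genes of fibroblasts, the cells that feeder layers are commonly made of, also stood higher on day 0 than on day 2 arrays. On day 0 replicate 2, which had the highest Hoxc4, Hoxc8, Hoxd8, Hoxd9 and Hoxd10 (3.95) among the 3 arrays, Prrx1, a mesenchymal transcription factor, was at 9.21 and the collagen gene Col3a1 at 6.57. On day 0 replicate 3 they were at 5.30 and 5.49, and on day 0 replicate 1 at 2.26 and 2.25. Of the 5 Hox genes, Hoxc4, Hoxc8, Hoxd9 and Hoxd10 followed this order of the 3 arrays, though Hoxc4 was close on replicates 3 and 1 (5.05 and 5.03), and Hoxd8 was lowest on replicate 3. Col1a1, Col1a2 and Thy1 were highest on replicate 3, Postn, Pdgfrb and Twist1 on replicate 2 and Dcn on replicate 1. On the 4 day 2 arrays Prrx1 and Col3a1 stayed at 2.25. Over the 10 fibroblast markers, the summed signal on the log2 scale was 9.47, 11.01 and 11.89 on day 0 replicates 1, 2 and 3. It was thus highest on replicate 3, and at day 2 it was 7.73 to 8.21. At or above background were 5 to 7 markers at day 0 and 3 or 4 at day 2. Thy1 was at 5.26, 5.61 and 6.78 at day 0, within or under its day 2 range (5.65 to 7.10). Twist1 was lowest on replicate 3 (7.13, 7.52 and 6.38). Of the 10 markers, 1 passed the test, Col1a1, which fell by 4.79 (SE 0.72) with an adjusted p of 0.00138 in limma, and Lum stayed at 2.24 to 2.28 on the day 0 arrays. Hoxc13, at the 5′ end of HoxC, was at 4.53, 5.82 and 4.15 at day 0 and at 2.48 to 3.51 at day 2. The part of fibroblast RNA in the day 0 Hox signals was not tested.

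**Figure D2:**
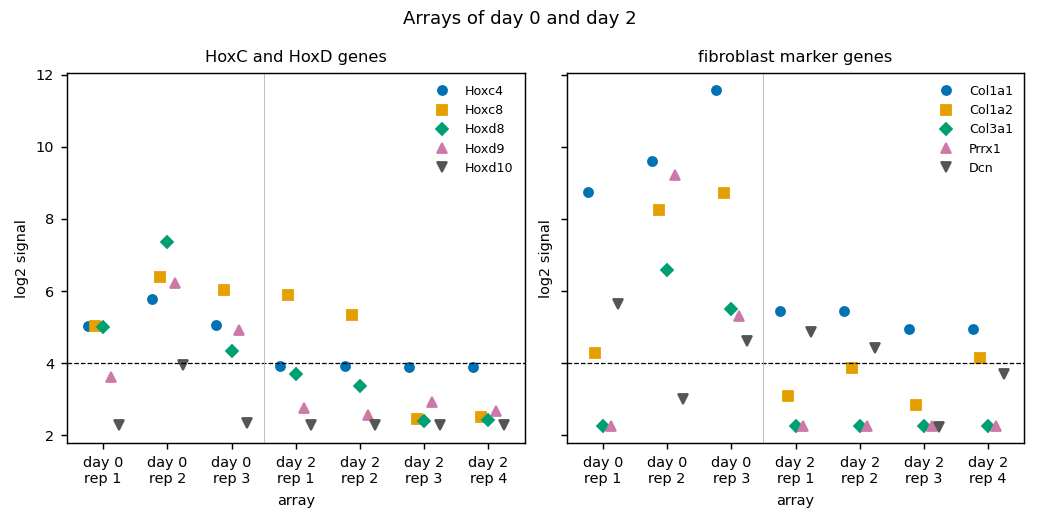
Log2 signal (vertical axis) of 5 HoxC and HoxD genes (left) and 5 fibroblast markers (right) on the 3 day 0 and 4 day 2 arrays (horizontal axis), each symbol being 1 gene and the dashed line the background level of 4. Day 0 replicate 2 has the highest values of all 5 Hox genes among the day 0 arrays and the highest Prrx1 (9.21) and Col3a1 (6.57). Col1a1 and Col1a2 are highest on replicate 3 and Dcn on replicate 1.

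After 8 h of RA, Hoxc4 rose and no other member passed the test. The difference between the means was 3.87 (SE 0.26) on the log2 scale, at least 13.7-fold, with an adjusted p of 8.78e-06 in limma. Hoxc5 was higher by 2.07 (SE 0.40) on both arrays, at least 1.23-fold, but missed the threshold with an adjusted p of 0.0562 in limma, and its other 2 probe sets stayed under background. Hoxd3 and Hoxd8 were under background on all arrays of both groups, so that a change of their RNA beneath that level would not be seen. Thus 1 of the 9 genes rose and 0 fell, where 0.363% of all genes rose and 0.0715% fell. Before adjustment, Hoxc5 had a limma p of 0.000209, and the smallest among the other 7 genes was 0.217, that of Hoxc8. A fit of the 6 arrays of these 2 groups alone called Hoxc5 in place of Hoxc4, whose adjusted p was then 0.0393 in limma. That call of Hoxc5 rests on the probe set given above, whose day 2 arrays lay at the lowest values with almost no spread (SD 0.0068). On its probe set 1456301_at the difference was 0.12. With 2 arrays at 8 h, the spread was taken from all stages.

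More genes of HoxB and HoxA passed the test by then. In HoxB, 6 of 9 measured genes rose after 8 h (median difference of the list 4.70 on the log2 scale, that over all genes being 0.00, and 4.54 once every value under background is set to 4), among them Hoxb5 by 7.74 (SE 0.56), Hoxb1 at least 83.1-fold and Hoxb4 at least 71.8-fold. In HoxA, 5 of 10 measured genes rose (median 1.52, or 0.73 with values so set), among them Hoxa3 by 5.43 (SE 0.45), Hoxa5 at least 24.7-fold and Hoxa4 at least 8.04-fold, the latter pair being under background on all day 2 arrays. Of 7 further genes of the HoxC and HoxD clusters (Hoxc10, Hoxc13, Hoxd1, Hoxd11, Hoxd12, Hoxd13 and Evx2), 0 passed the test in any of the 6 comparisons. Among the Hox partners, Meis and Pbx proteins that bind DNA together with Hox proteins, 3 of 8 rose (median 0.83), namely Meis2 by 4.26 (SE 0.24), Meis1 by 1.29 (SE 0.18, at least 2.10-fold) and Pbx2 by 1.05 (SE 0.15). Of 8 posterior inducers, signals and factors known to switch on 5′ Hox genes, 2 rose (median 0.00), Cdx1 at least 12.8-fold and Wnt8a by 1.33 (SE 0.09), and Cdx1 was back at 2.24 on every array from day 3 on. Of the 6 retinoid receptors, 1 rose (median -0.05), Rarb, by 3.52 (SE 0.39). Of 17 Polycomb and trithorax genes, whose products keep Hox clusters silent or active, 0 passed the test (median 0.19).

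Between day 2 and day 3, Hoxc5 and Hoxd3 passed the test beside Hoxc4. Hoxd3 rose by 8.02 (SE 0.26), at least 93.2-fold, Hoxc4 by 7.81 (SE 0.23), at least 211-fold, and Hoxc5 by 5.96 (SE 0.35), at least 18.4-fold, with adjusted p of 1.21e-09, 4.23e-10 and 2.99e-07 in limma. Hoxd8 was higher by 2.89 (SE 0.74) and missed the threshold with an adjusted p of 0.0287 in limma. Both probe sets shared by Hoxd4 and Hoxd3 rose, by 4.61 (SE 0.18) and 4.02 (SE 0.28), where 4.18% of all probe sets passed the test in either direction. Thus 3 of the 9 genes rose and 0 fell, where 3.91% of all genes rose and 3.8% fell. Replicate numbers paired the arrays of days 2 and 3, and with the replicate block in the fit of all arrays the same 3 genes were called. In a blocked fit of only the 6 arrays of these days that share a number, 0 were called, with adjusted p of 0.0266 for Hoxc4, 0.0395 for Hoxd3 and 0.0872 for Hoxc5 in limma, and differences of 7.81, 8.00 and 5.96.

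The steps of the genes differed in size and time. Of the difference between day 2 and day 7, which was 8.41 for Hoxc4, 8.60 for Hoxc5, 7.74 for Hoxd3 and 3.52 for Hoxd8 on the log2 scale, Hoxc4 had covered 46.1% after 8 h of RA, Hoxc5 24.0%, Hoxd8 0.893% and Hoxd3 -2.02%. By day 3 the shares were 93.0% for Hoxc4, 69.4% for Hoxc5, 82.2% for Hoxd8 and 104% for Hoxd3. These shares are of log2 signals that start under background, and they carry no test. They are also those of the brightest probe set of each gene, and the share of Hoxc5 by day 3 depends on the probe set. On 1456301_at and 1450832_at its differences from day 2 were 1.08 and 0.54 at day 3, against 5.70 and 4.22 at day 7. With values raised to the background level, the share covered after 8 h was 45.5% for Hoxc4 and 4.45% for Hoxc5, so that the share of Hoxc5 rests on its starting value, and by day 3 it was 92.9% and 61.5%. From day 2 to day 7, 4 of the 9 genes rose (Hoxc4, Hoxc5, Hoxd3 and Hoxd8) and 0 fell, where 16.2% of all genes rose and 15.5% fell, and the call of Hoxd8 (SE 0.74, adjusted p of 0.00232 in limma) was lost without day 7 replicate 3, without day 7 replicate 5 and in the fit of these 2 groups alone, at adjusted p of 0.0127, 0.0147 and 0.0326 in limma. It was also lost with values raised to the background level (2.48, adjusted p of 0.0184 in limma), with day 2 replicates 1 and 2 only (adjusted p of 0.0342) and in the blocked fit of shared numbers (0.276). With s-type probe sets left out, the other Hoxd8 probe set gave a difference of 1.10 in place of 3.52, with an adjusted p of 0.0642 in limma.

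**Figure D3:**
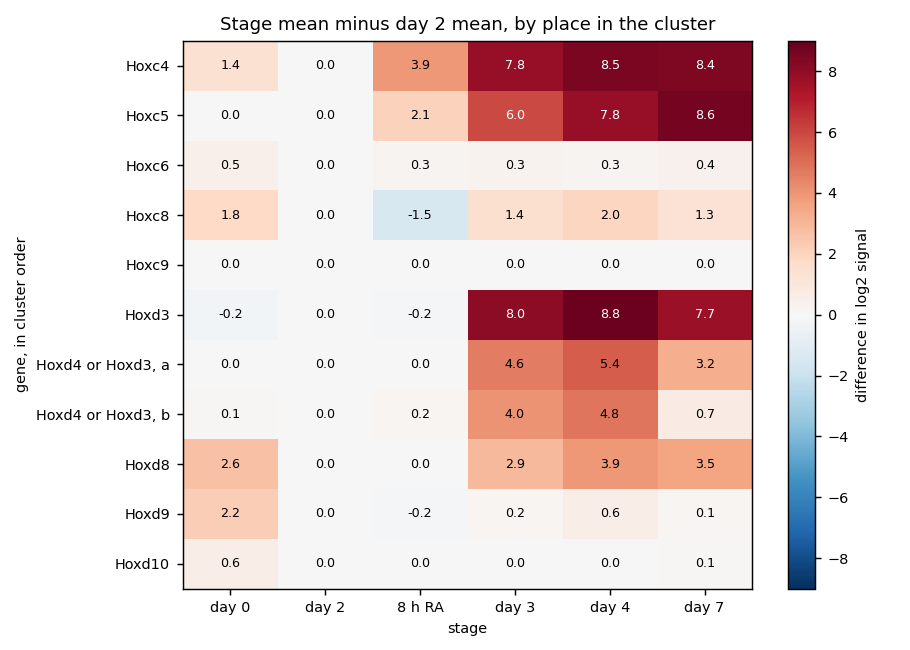
Mean log2 signal of each stage minus the day 2 mean (colour and printed value), with stages across and probe sets down in the order of the HoxC and then the HoxD cluster; rows a and b are the 2 probe sets that Hoxd4 and Hoxd3 share. Differences over 5 occur at days 3 to 7 in Hoxc4, Hoxc5 and Hoxd3 and at day 4 in row a, and the row of Hoxc9 is at 0.0 throughout.

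After day 3 the members changed less, and Hoxc5 went on rising. From day 3 to day 4 its brightest probe set was higher by 1.86 (SE 0.38, adjusted p of 0.0267 in limma), and a second probe set, 1456301_at, rose by 3.00 (SE 0.31, adjusted p of 0.000206). That probe set stood at 4.15, 4.15 and 4.53 at day 3, between 6.46 and 7.77 at day 4 and between 8.53 and 9.16 at day 7. From day 4 to day 7 it rose by 1.62 (SE 0.31, adjusted p of 0.00212 in limma), while the brightest was higher by 0.77 (SE 0.38, adjusted p of 0.214). The third probe set, 1450832_at, lay under background on the 3 day 3 arrays and was at 3.34, 6.05 and 5.45 at day 4 and at 6.43, 6.37 and 6.57 at day 7. The 3 probe sets thus rose in the same order of stages but crossed the background level at different times, between 8 h of RA and day 4. From day 3 to day 4, 1 of the 9 genes rose and 0 fell (0.627% and 0.792% of all genes), and from day 4 to day 7 again 1 rose and 0 fell (10.9% and 8.17% of all genes). Both calls rest on 1456301_at, since neither was made with the brightest probe set alone. The call from day 4 to day 7 was also lost without day 7 replicate 3, and the call from day 3 to day 4 in a fit of these 6 arrays alone and in the same fit with the replicate block, replicate numbers having paired these days too (0 called in both). Without day 4 replicate 3 Hoxd3 was called as well in both comparisons, as a rise from day 3 to day 4 and a fall from day 4 to day 7.

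Hoxd3 was lower at day 7 than at day 4 by 1.05 (SE 0.28), with an adjusted p of 0.0174 in limma and overlapping arrays. The probe sets that carry both Hoxd3 and Hoxd4 fell further. 1421537_at was at 6.70, 6.62 and 7.45 at day 3, 7.89, 7.38 and 7.94 at day 4, and 5.57, 5.46 and 5.62 at day 7. 1450209_at was at 5.87, 5.94 and 6.95 at day 3, 6.57, 6.92 and 7.57 at day 4, and 2.78, 2.65 and 3.39 at day 7. The day 7 arrays lay under all arrays of days 3 and 4 on both. The differences between days 7 and 4 were -2.19 (SE 0.19, adjusted p of 2.43e-06 in limma) and -4.08 (SE 0.30, adjusted p of 4.67e-07), the latter at least 8.11-fold, where 11.5% of all probe sets passed in either direction. Before day 3 both stayed at 2.24 to 2.65 on every array. The share of either gene in these probe sets was not tested, so no level of Hoxd4 is given.

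**Figure D4:**
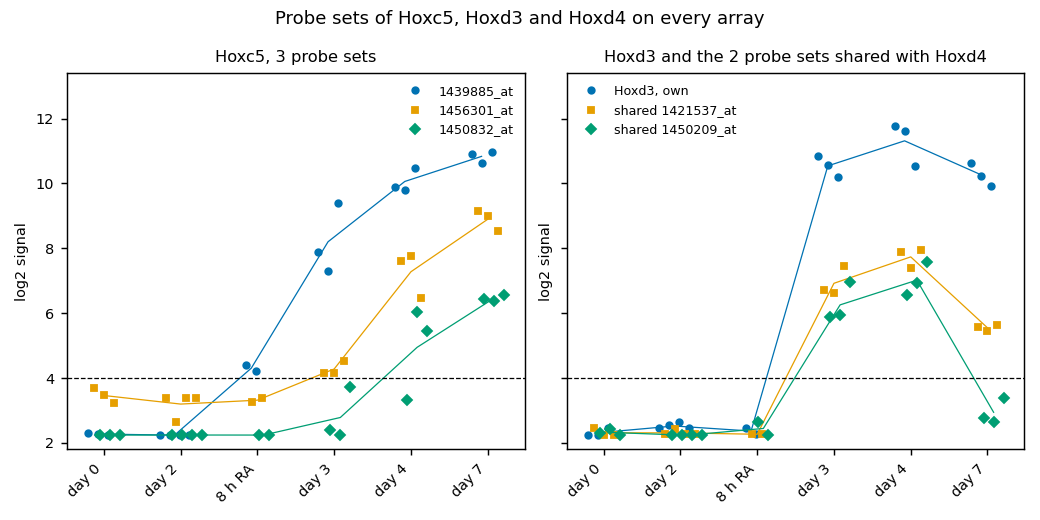
Log2 signal (vertical axis) on every array by stage (horizontal axis) for the 3 probe sets of Hoxc5 (left) and for the own probe set of Hoxd3 beside the 2 it shares with Hoxd4 (right); points are arrays, lines join stage means and the dashed line is the background level of 4. Hoxc5 rises on all 3 probe sets, with 1450832_at above the line on 2 of the 3 day 4 arrays and on all day 7 arrays. The shared probe sets drop from day 4 to day 7 on every array.

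Markers of cells other than motor neurons also changed from day 4 to day 7, a step over which 10.9% of all genes rose and 8.17% fell. Of 6 glia and neural crest markers, 4 rose (Aqp4, Mbp, Sox10 and Ngfr), with Sox10, a neural crest and glial transcription factor, at least 31.8-fold. Mbp did so in at least 1 of its probe sets, though not in its brightest (7.67 to 8.10 at day 4, 8.08 to 8.51 at day 7). The summed signal of the 6 on the log2 scale went from 8.25 to 8.65 at day 4 to 10.46 to 11.70 at day 7. Gfap was at 2.24 throughout days 4 and 7, and Foxd3 did not pass the test. Of the 7 motor neuron markers 4 rose over the same step. Of 4 neural progenitor markers 3 fell, with log2 differences of -2.08 (SE 0.25) for Sox1, -2.64 (SE 0.46) for Sox3 and -6.53 (SE 0.98) for Pax6, and their summed signal went from 12.47 to 12.98 at day 4 to 10.93 to 11.19 at day 7. Of 4 markers of motor neuron progenitors 2 fell, with differences of -2.06 (SE 0.50) for Olig2 and -5.64 (SE 1.08) for Neurog2 and summed signals of 12.41 to 12.48 and 10.01 to 11.53. Of 6 interneuron markers 1 rose, Gata3, at least 5.55-fold, and of the fibroblast markers 1 rose, Dcn, in at least 1 of its probe sets, though not in its brightest. The array order at day 7 differed among genes, since Sox10 was at 6.88, 9.04 and 11.05 and Hoxd8 at 6.85, 4.73 and 7.87 on replicates 3, 4 and 5. The part of a changed cell makeup in the day 7 values was not tested.

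Hoxc8, which marks forelimb levels and lies behind Hoxc6 in the cluster, passed no test. Its signal was 5.02, 6.39 and 6.03 at day 0, and 5.90, 5.34, 2.44 and 2.51 at day 2. It was 2.73 and 2.44 after 8 h of RA, 5.87, 6.28 and 4.24 at day 3, 7.57, 6.19 and 4.24 at day 4 and 6.24, 5.60 and 4.27 at day 7. At days 3 and 4 the arrays of replicate 3 were the lowest, and at day 2 those of replicates 3 and 4 were. Its differences between successive stages ran from -1.77 to 1.42 on the log2 scale with SEs of 0.99 to 1.12, so that a change of several fold was not detectable with these arrays. With day 2 replicates 1 and 2 alone the difference between days 3 and 2 was -0.15 on the log2 scale in place of 1.42. Dcn, a fibroblast marker that encodes a matrix proteoglycan and was picked after its values were seen, was also lowest on replicate 3 at days 2, 3 and 4, at 4.86, 4.41, 2.24 and 3.70, at 4.98, 5.27 and 2.56 and at 6.26, 6.33 and 3.25. At day 0 it was lowest on replicate 2, where Hoxc8 was highest, and at day 3 the collagen genes Col1a1 (5.87, 5.21 and 8.12) and Col1a2 (5.17, 5.30 and 7.21) were highest on replicate 3. Over the 10 fibroblast markers, the summed signal was highest on replicate 3 at day 2 (8.21) and day 3 (8.93) and lowest there at day 4 (6.68). Klf4, an ES cell marker picked in the same way, was lower on replicates 3 and 4 at day 2 (8.03, 8.19, 4.57 and 4.80). It was lowest on replicate 3 at day 3 (7.56, 7.13 and 5.26) and day 4 (8.63, 6.67 and 5.67). The other ES cell markers did not all follow Klf4. At day 2 Zfp42 was also lower on replicates 3 and 4 (8.98, 8.52, 7.82 and 8.30). Pou5f1 was higher there (12.53, 11.92, 12.75 and 12.84), and Nanog, Esrrb and Tdgf1 were mixed. At day 3 Pou5f1, Nanog and Tdgf1 were lowest on replicate 3, and at day 4 Nanog was highest there (3.90, 3.30 and 5.64). Same-numbered arrays of days 2, 3 and 4 also deviated together over all probe sets. The parts of fibroblast RNA and of such differences between replicates in the Hoxc8 values were not tested.

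The members that mark thoracic and lumbar levels had no signal above background during differentiation. Hoxc9 lay between 2.24 and 2.36 on all 18 arrays. Hoxd10 was at 2.24 to 2.46 on every array except day 0 replicate 2. Hoxc6, a gene of forelimb levels, was measured by 3 probe sets, of which 2 lay at 2.24 to 2.36. Its brightest ran from 2.58 to 4.23, with 16 of 18 arrays under background. The exceptions were day 0 replicate 2 (4.23) and day 7 replicate 5 (4.07). From day 3 on, Hoxd9 ran from 2.83 to 3.83. A probe set at the lowest values can miss a transcript, so that absence of the RNA is not shown.

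Genes next to the clusters passed no test up to day 4 and some did by day 7, when more of all genes did too. Of 7 genes that flank HoxC and 5 that flank HoxD, 0 passed the test after 8 h of RA, from day 2 to day 3 and from day 3 to day 4 (medians within 0.21 of 0). From day 4 to day 7, 10.9% of all genes rose and 8.17% fell. Over that step 1 of the 7 genes beside HoxC, Hnrnpa1, fell in at least 1 of its probe sets. Of the 5 in the neighbourhood of HoxD 1 rose, Chn1, by 1.60 (SE 0.29). From day 2 to day 7, 16.2% of all genes rose and 15.5% fell. Of the 7 beside HoxC, 1 rose, Smug1, by 3.32 (SE 0.38), and 2 fell, Hnrnpa1 and Atp5g2, in at least 1 of their probe sets. Of the 5 near HoxD 1 rose, Chn1, by 1.64 (SE 0.27). From day 2 to day 3, 3.91% of all genes rose and 3.8% fell. Over that step 6 of 9 HoxB genes (median 4.39, or 3.00 with values raised to the background level), 4 of 10 HoxA genes (median 0.00) and 5 of 8 Hox partners (median 1.68) rose. Among them, Hoxb4 rose at least 140-fold, Hoxa3 by 6.03 (SE 0.39) and Meis1 at least 22.7-fold, and none of these lists had a gene that fell. The Polycomb and trithorax genes split into 2 that rose by day 3 (Bmi1 by 2.66, Ring1 by 2.18), 2 that fell (Cbx7 by 3.00, Phc1 by 2.42) and 13 that did not pass, and from day 4 to day 7, 5 of the 17 fell, with Cbx2 falling by 2.21 (SE 0.31). Of 10 factors known from motor column and pool identity, 6 rose from day 4 to day 7 (median 1.79, or 0.98 with values raised to the background level), among them Isl2 at least 1.85-fold, and Foxp1, known as a partner of Hox proteins in limb motor neurons, fell in at least 1 of its probe sets.

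Across the 18 arrays the 3 genes that rose most ran together, with Pearson's r of 0.96 between Hoxc4 and Hoxc5, 0.95 between Hoxc4 and Hoxd3 and 0.95 between Hoxc5 and Hoxd3. Over 4186 other genes with a wide range, the pattern most like that of Hoxc4 was that of Meis1, a homeodomain factor (r of 0.98), followed by Letmd1. For Hoxc5 it was Zfhx4, a zinc finger homeobox factor (r of 0.99), and Cxcr4, a chemokine receptor. For Hoxd3 it was Nr2f1, an orphan nuclear receptor (r of 0.99), and Pou3f2, a neural POU factor. Hoxd8 and Hoxc8 had looser partners, Lats2 and Fhl1 (r of 0.90 and 0.88) and Ino80dos and Acad9 (both 0.87). Hoxd9 ran most like Thbd and the interferon-induced Oas1a (both 0.94). All arrays were normalized together, the 18 points fall into 6 stages, and the genes named depend on the measure, since with Spearman's rho 0 of the 12 named genes were the same and over stage means 4 were.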

How the data were processed

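RNA from HBG3 mouse ES cells and their differentiated progeny was amplified and hybridized to 18 Affymetrix mouse arrays. What the authors deposited is 1 log2 signal for each probe set of each array, from GCRMA run on all arrays together, which corrects background by probe sequence, equalizes the distributions of the arrays by quantiles and sums up the probes of a set. The versions of GCRMA and limma they used are not given in the sources used here. Of the probe sets, 64 are controls and were dropped, and 45037 were tested, of which 34945 carry 1 gene symbol in the platform annotation, 932 several and 9160 none here.

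Limma 3.58.1 in R 4.3.3 was fitted with 6 stage means to all 18 arrays (12 residual and 0.515 prior degrees of freedom), with Benjamini-Hochberg adjustment over all tested probe sets. The test counted as passed at the thresholds of the study, an adjusted p under 0.01 with at least a 2-fold change, in any probe set of a gene. Its value is that of its brightest probe set by mean over all arrays. A fold against a group whose arrays were all under 4 is a lower bound, with the group's mean set to 4. SEs use a spread pooled over the 18 arrays and can be too small for genes at the lowest values, and the number of arrays limits precision. The study describes its arrays as biological triplicates, though 2 arrays stand for 8 h of RA and 4 for day 2. The labels themselves do not say which arrays come from separate cultures. Where arrays share a culture, p-values measure only the spread between arrays. Named are all members, up to 3 called genes with the largest change per list and direction, and for each member with a range of at least 2 the 2 most correlated genes. Members, the 10 gene lists and the 8 marker lists were chosen with earlier results of these data known. Figures were drawn with Python 3.11.15 and matplotlib 3.10.9. Scripts were tested on simulated data.

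Replicate numbers were taken to pair arrays where the deviations of same-numbered arrays from their stage means correlated above 0.1 in every pair of 3. Days 2 and 3 met this (0.48, 0.35 and 0.48), as did days 3 and 4 (0.64, 0.42 and 0.75), while days 0 and 2 (0.21, -0.20 and -0.13) and the 8 h arrays (-0.22 and -0.45) did not. Alternatives were other fits, filters, scalings, thresholds and each array left out in turn. Day 2 replicates 3 and 4 only, and replicates 1 and 2 only, were chosen after seeing the data.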

Additional observations from a re-analysis of the deposited data

Results flagged for a closer look

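Among the 9 genes on the 4 day 2 arrays, 4 had 1 array apart from the rest, with a gap of 1 times the whole range. The 3 other arrays of each were tied within the printed digits. Hoxc5 stood at 2.25 on 1 array against 2.24, Hoxc9 at 2.26 against 2.24, Hoxd10 at 2.27 on all 4, and Hoxc6 at 2.58 on 1 array against 3.69. All of these lie under the background level. Chance sets about 1 group in 20 apart by this measure only where values are not tied, so that rate does not hold for these 4 groups.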

How the results depend on the processing

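From day 2 to day 3 the 3 calls (Hoxc4, Hoxc5 and Hoxd3) were made under 21 of 22 alternatives, and with the replicate block in the fit of 2 groups' shared numbers 0 were called. That fit called 0 members in the comparisons of 8 h of RA with day 2, day 2 with day 0, day 4 with day 3 and day 7 with day 2 too, where it rests on few residual degrees of freedom. From day 2 to day 7 the other alternatives called 3 or 4, and after 8 h of RA 1 (Hoxc5 in place of Hoxc4 in the fit of 2 groups only). From day 0 to day 2, 0 were called in the fit of 2 groups only and with day 2 replicates 3 and 4 only or 1 and 2 only. There, 1 was called with the replicate block over all arrays, values raised to 4, quantile normalization or median centring. From day 3 to day 4, 0 were called in the fit of 2 groups only and with the brightest probe set only. From day 4 to day 7, 0 were called in the fit of 2 groups only, with the replicate block over all arrays and with the brightest probe set only, and 2 with dim probe sets left out, median centring or an adjusted p under 0.05 (Hoxd3 as a fall). The block within days 4 and 7 could not be fitted, since they share 1 number. Leaving out each array gave 0 to 2 calls from day 0 to day 2, 1 to 2 from day 3 to day 4 and 0 to 2 from day 4 to day 7. Of the members above background, a level of 3.5 gave 5 at day 0 and 1 at day 2, and a level of 5 gave 1 after 8 h and 3 at day 7. Of the 12 genes most like a member, 4 were shared with stage means and 0 with Spearman's rho. No called difference changed sign under these alternatives. Genes under the background level have only a bound there. The cause was not tested where a count changed.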
